A study of Homo sapiens with 8 samples.

Results

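The nuclear hormone receptor superfamily is a group of transcription factors, most of which are switched by small lipid-soluble ligands. The family was taken as 43 named genes, and a gene counted as measured where at least 1 probe set of the array was annotated to that gene alone. By this rule 37 of the 43 genes were measured, among 19775 genes in all. NR1H2, NR1H4, NR1I2, NR2F2, HNF4A and NR0B1 were not analysed here. The brightest probe set of a gene, by its mean over the 8 arrays, stood for the gene, and the other probe sets are given beside it where they differ. Of the 37 genes 7 had 1 probe set and 30 had several, 124 probe sets together.

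The tested cultures were K562 cells given 1 µM beta-estradiol for 6 h (4 arrays), set against K562 cells given the ethanol vehicle for 6 h (4 arrays). K562 is an established human leukaemia line with erythroid features. Every culture carried a stably expressed fusion of p42-C/EBPa, a transcription factor of granulocyte development, to ER, a hormone-binding oestrogen receptor part through which estradiol brings the factor into the nucleus. All cultures grew in phenol red-free RPMI with 10% charcoal-stripped serum, which lowers steroids and other lipid ligands in the medium. The labels name no cells without the fusion and do not say whether the line is 1 clone, so the actions of estradiol on the fusion and on other receptors cannot be told apart. The titles call the arrays biological replicates, and nothing says how the cultures were kept apart, so the spread between them may in part be technical.

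Nuclear receptors share a zinc finger domain that binds DNA and a domain that binds ligand. Steroid receptors such as NR3C1 wait in complexes with HSP90 chaperones and act mostly as pairs of like receptors. Receptors for retinoids, vitamin D, thyroid hormone, fatty acids and oxysterols act mostly as pairs with an RXR, on repeats of the half-site AGGTCA. The orphan receptors have no agreed natural ligand or act without one. In blood, the glucocorticoid receptor supports the expansion of erythroid progenitors, and the retinoic acid receptor RARA takes part in granulocyte maturation.

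Values are log2 signals, and a value of 1 probe set is not comparable with that of another. Array medians were 4.97 to 5.08 and lower quartiles 3.67 to 3.74 on this scale. Of the 37 members, 7 had a mean below every lower quartile and 14 a mean below every array median, and no detection calls were used to set such dim genes apart from background. Markers of the erythroid line were bright, GATA1 averaging 9.02 ± 0.03 with estradiol and 9.92 ± 0.01 with vehicle, and HBZ averaging 13.93 ± 0.02 and 13.97 ± 0.03 (SD, n = 4). Of 14 measured markers of T cells, B cells, epithelium and liver, KRT19, which fell, EPCAM and CD3D averaged above 7 with estradiol, and the other 11 averaged 2.65 to 6.11. The part of these markers in the results was not tested. A lower signal from bulk RNA cannot tell fewer expressing cells from less RNA per cell. Estradiol replicate 1 and vehicle replicate 2 stood apart. Estradiol replicate 1 held the lowest of the 8 values for 14 of the 37 members and for 22.9% of all genes, and vehicle replicate 2 for 8 members and for 24.6% of all genes.

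With estradiol 6 of the 37 receptor genes changed, by 1.16-fold to 1.33-fold. The glucocorticoid receptor NR3C1, the orphan repressor NR2F6 and the oestrogen-related receptor ESRRB fell. The germ cell nuclear factor NR6A1, the oxysterol receptor NR1H3 and the fatty acid sensor PPARD rose. The 6 calls make 16.2% of the members, a share near the 17.9% of all genes called (limma, Benjamini-Hochberg adjusted p below 0.05). The 3 rises compare with 8.29% of all genes called higher, and the 3 falls with 9.6% called lower. The median difference was −0.05 on the log2 scale over the members and −0.03 over all genes. For 10 of the 37 members every estradiol value lay on the same side of every vehicle value, as it did for 24.1% of all genes. The count was 3 higher and 2 lower without estradiol replicate 1 and vehicle replicate 2 together, the missing fall being that of ESRRB.

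**Figure D1:**
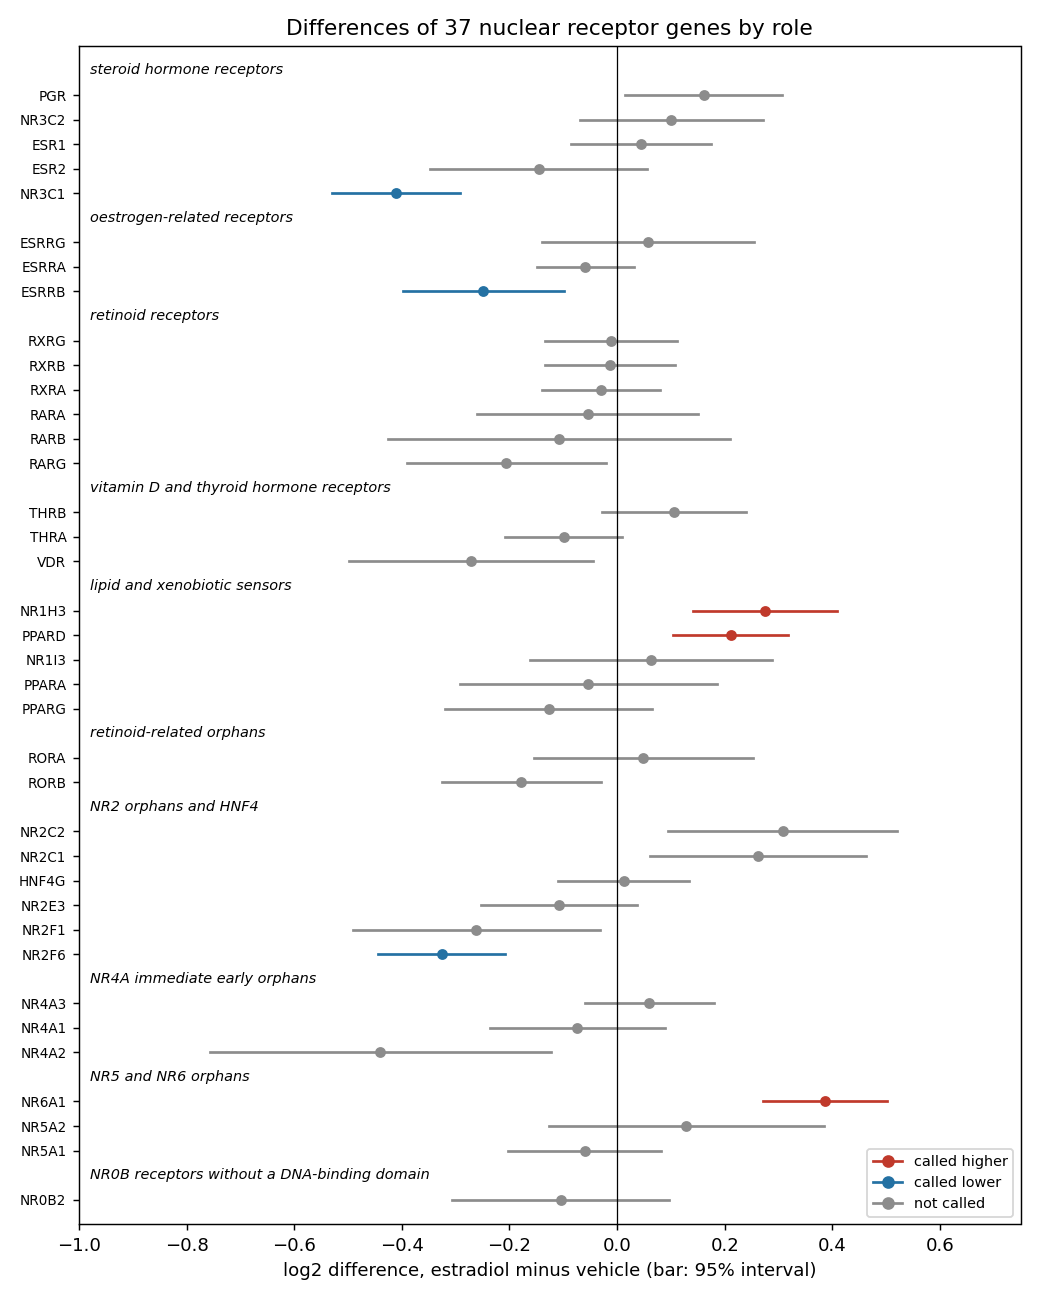
Each dot is the log2 difference of 1 receptor gene, estradiol minus vehicle, and its bar is the 95% interval from limma, with genes grouped by role. NR6A1, NR1H3 and PPARD lie to the right of 0 in red, NR3C1, NR2F6 and ESRRB to the left in blue, and the other 31 genes, in grey, were not called.

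Promoter windows were searched for the letters bound by C/EBP factors, since the fusion carries one, and for the half-site of the receptors themselves. RefSeq windows of 300 bases (GRCh38.p14) matched 32 of the 37 members, 82 windows in all since a gene can have several starts. The C/EBP letters TTGCNNAA, on either strand, stood in 9 of these 82 windows (10.98%) and in 10.5% of all 35116 windows. The receptor half-site AGGTCA, on either strand, stood in 13 of the 82 (15.9%) and in 13.8% of all windows. Neither set of letters contains the other, and a match describes the letters only. The uncalled members with C/EBP letters were PPARG, RARB, RORB, RXRA, PGR and NR2C1. The stretches below are those of called members that hold a match, with NR2C1 added by choice from these uncalled ones. The called member NR2F6 had no window and so was not searched. Capitals mark the match, and each is written along the gene's own strand.
NR3C1, C/EBP letters, chr5:143405546-143405605, minus strand: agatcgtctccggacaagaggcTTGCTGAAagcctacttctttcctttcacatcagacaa
NR1H3, half-site, chr11:47248134-47248193, plus strand: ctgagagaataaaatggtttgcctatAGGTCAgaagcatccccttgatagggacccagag
NR1H3, C/EBP letters just after another start, chr11:47257698-47257727, plus strand: ggaggcagtccTTTTGCAAgagctgctaag
NR2C1, C/EBP letters, chr12:95073773-95073832, minus strand: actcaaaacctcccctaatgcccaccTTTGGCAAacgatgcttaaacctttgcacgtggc

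Among the steroid receptors, NR3C1 fell and the other 4 were not called. NR3C1 encodes the glucocorticoid receptor. It had log2 signals of 7.90, 7.93, 7.995 and 7.94 with estradiol, against 8.48, 8.29, 8.33 and 8.32 with vehicle. All estradiol arrays lay below all vehicle arrays, and vehicle replicate 1 was the highest. The difference was −0.41 ± 0.05 (SE, limma adjusted p = 0.000602), a signal 1.33-fold lower. Of its 5 probe sets 4 were called lower in a fit over every probe set, and the dim remaining one averaged 2.71 with estradiol and 2.92 with vehicle. The 60 bases printed above for NR3C1 come from 1 of its 7 promoter windows.

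ESR1 encodes oestrogen receptor alpha, a receptor for the added hormone. Its brightest probe set gave 8.68, 8.79, 8.72 and 8.80 with estradiol, against 8.64, 8.62, 8.81 and 8.75 with vehicle. The groups overlapped, and the 95% interval of the difference ran from −0.09 to 0.17. None of its 9 probe sets was called. The 9 differed in signal, some with means over the 8 arrays of 7.27 to 8.73 and the others with means of 2.56 to 4.14. Their place relative to the fusion is not known here. RNA of the fusion and of the cells' own ESR1 therefore cannot be told apart in these values. ESR2, the beta form, gave 5.24, 5.60, 5.53 and 5.52 with estradiol, against 5.56, 5.53, 5.79 and 5.59 with vehicle, and was not called. PGR, the progesterone receptor and a known oestrogen target, averaged 3.49 ± 0.06 with estradiol and 3.33 ± 0.12 with vehicle (SD, n = 4). Its level lay below the lower quartile of every array, and its difference of 0.16 ± 0.06 (SE) was not called (limma adjusted p = 0.135). NR3C2, the mineralocorticoid receptor, averaged 2.86 ± 0.13 with estradiol and 2.76 ± 0.09 with vehicle.

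The oestrogen-related receptors are orphans that act on energy metabolism without binding estradiol as a natural ligand. ESRRB, a factor of embryonic stem cells, had 4.94, 4.75, 4.97 and 4.98 with estradiol, against 5.06, 5.26, 5.16 and 5.16 with vehicle. The groups did not overlap, by a margin of under 0.1, and the level was close to the array medians. The difference was −0.25 ± 0.07 (SE, limma adjusted p = 0.0295) on 1 of 3 probe sets, while the other 2 gave −0.11 and −0.09 and were not called. Leaving out a single array ended the ESRRB call in 5 of 8 cases (estradiol replicates 1 and 2, vehicle replicates 2, 3 and 4), with adjusted p between 0.0529 and 0.0714. Averaging its probe sets ended it too (−0.15, adjusted p = 0.238), as did centring the arrays on their medians (−0.22, adjusted p = 0.0556) and limma's trend and robust fit (adjusted p = 0.0646). ESRRA, which drives mitochondrial genes, averaged 8.47 ± 0.03 with estradiol and 8.53 ± 0.03 with vehicle (SD, n = 4), with an interval from −0.15 to 0.03. ESRRG was dim, at 3.71 to 3.90 with estradiol and 3.499 to 3.93 with vehicle.

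**Figure D2:**
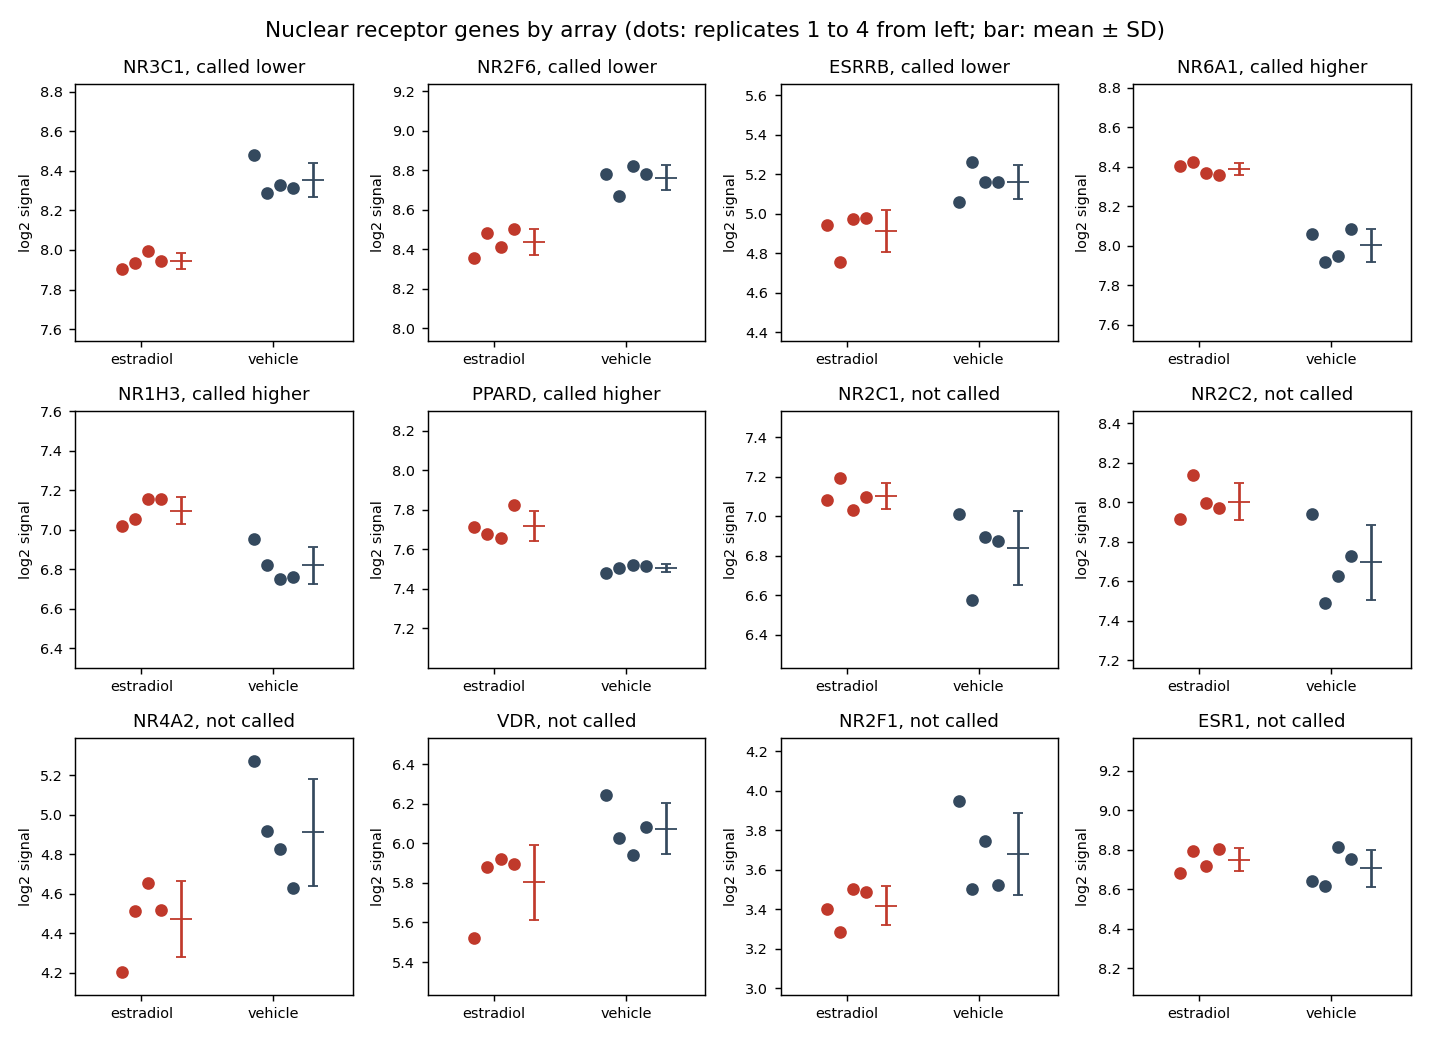
Each of the 12 panels shows the log2 signal of 1 gene on the 4 estradiol arrays (red) and the 4 vehicle arrays (dark blue), with the mean ± SD beside the dots and a y axis of the same height in all panels. The estradiol dots of NR3C1, NR2F6 and ESRRB lie below all vehicle dots, those of NR6A1, NR1H3 and PPARD above, and those of ESR1 overlap with vehicle.

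None of the 6 retinoid receptors was called at its brightest probe set. RXRA, the common dimer partner, averaged 8.65 ± 0.04 with estradiol and 8.68 ± 0.07 with vehicle (SD, n = 4), and the interval of its difference ran from −0.14 to 0.08. RXRB averaged 8.05 ± 0.10 with estradiol and 8.06 ± 0.01 with vehicle, with an interval from −0.13 to 0.11. For both genes the intervals leave out changes as large as that of NR3C1. RXRG was at 3.38 to 3.54 with estradiol and 3.35 to 3.52 with vehicle, below the lower quartiles of the arrays. RARB ranged from 4.71 to 5.16 with estradiol and from 4.80 to 5.42 with vehicle, the highest value being that of vehicle replicate 2.

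RARA and RARG, the alpha and gamma retinoic acid receptors, gave different pictures at different probe sets. The probe sets in this paragraph other than the brightest were picked out after their values had been seen. The brightest probe set of RARA gave 5.90, 6.27, 6.30 and 6.27 with estradiol, against 6.29, 6.14, 6.32 and 6.21 with vehicle, a difference of −0.05 ± 0.09 (SE). Estradiol replicate 1 was the lowest array there, and the groups otherwise overlapped. Another RARA probe set gave 5.36, 5.53, 5.88 and 5.59 with estradiol, against 6.39, 6.46, 6.33 and 6.00 with vehicle. These groups did not overlap, and the difference of −0.70 ± 0.13 (SE, limma adjusted p = 0.00501 over every probe set) was the largest of any member probe set. The other 3 RARA probe sets were not called, at −0.13, 0.04 and 0.10. RARG had a second probe set at 5.45, 5.48, 5.55 and 5.41 with estradiol, against 5.88, 6.01, 5.86 and 5.81 with vehicle. It was lower on every estradiol array than on every vehicle array. The difference of the means was −0.42 ± 0.06 (SE, adjusted p = 0.0013 over every probe set), while the brightest RARG probe set gave −0.21 ± 0.08 (adjusted p = 0.132 over all genes). With the mean of its 3 probe sets RARG was called lower (−0.26, adjusted p = 0.0329), as was its brightest probe set without estradiol replicate 3 (−0.27, adjusted p = 0.0447). These were the only 2 of 19 other fits that called RARG. The mean of the 5 RARA probe sets gave −0.15 and was not called (limma adjusted p = 0.239). Which transcripts these probe sets measure was not analysed here, and the differences between probe sets of a gene were not tested.

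Over every probe set, 17 of the 124 of the members were called, 6 higher and 11 lower. That is 13.7%, near the 13.1% of all 41097 probe sets tested. Only NR3C1, NR4A2, NR6A1 and PPARD had more than 1 called probe set, and none of them had calls in opposite directions.

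**Figure D3:**
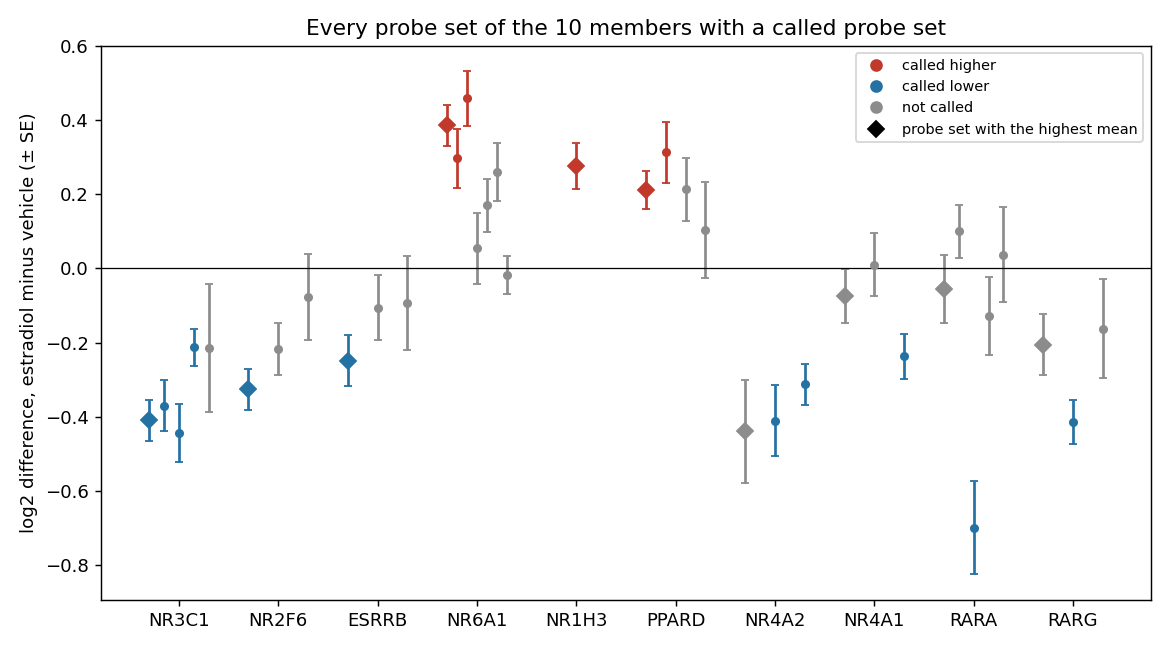
Each mark is the log2 difference ± SE of 1 probe set in the fit over every probe set, for the 10 members with at least 1 called probe set, and diamonds are the brightest probe sets. The marks of NR3C1, NR2F6, ESRRB, NR4A2 and RARG all lie below 0, and those of PPARD and the single mark of NR1H3 above. For RARA 1 mark lies at −0.70 and the other 4 between −0.13 and 0.10.

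The vitamin D and thyroid hormone receptors were not called. VDR had 5.52, 5.88, 5.92 and 5.89 with estradiol, against 6.25, 6.03, 5.94 and 6.08 with vehicle. The groups just failed to overlap, and estradiol replicate 1 was far below the rest. The difference was −0.27 ± 0.10 (SE, limma adjusted p = 0.104), or −0.18 without estradiol replicate 1. The other VDR probe sets gave −0.06, 0.10 and −0.15, and the mean of all 4 gave −0.10 (adjusted p = 0.304). THRA averaged 6.29 ± 0.06 with estradiol and 6.39 ± 0.05 with vehicle (SD, n = 4), and THRB 8.47 ± 0.06 and 8.36 ± 0.10. The 95% interval ran from −0.21 to 0.01 for THRA and from −0.03 to 0.24 for THRB.

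Of the 5 measured lipid and xenobiotic sensors, NR1H3 and PPARD rose. NR1H3, also named LXR alpha, senses oxysterols and switches on cholesterol export. It had 7.02, 7.06, 7.15 and 7.15 with estradiol, against 6.95, 6.82, 6.75 and 6.76 with vehicle. The groups did not overlap, and the difference on its single probe set was 0.28 ± 0.06 (SE, limma adjusted p = 0.0106), or 1.21-fold. PPARD, the widely expressed fatty acid receptor, had 7.71, 7.68, 7.65 and 7.82 with estradiol, against 7.48, 7.504, 7.52 and 7.52 with vehicle. Every estradiol array lay above every vehicle array, and the difference of the means was 0.21 ± 0.05 (SE, adjusted p = 0.0129) or 1.16-fold. All 4 PPARD probe sets had positive differences and 2 were called. The liver and fat relatives PPARA and PPARG were not called. PPARA averaged 6.09 ± 0.20 with estradiol and 6.14 ± 0.14 with vehicle (SD, n = 4), and PPARG 4.11 ± 0.07 and 4.24 ± 0.17. NR1I3, the liver receptor CAR, ranged from 4.10 to 4.36 with estradiol and from 3.96 to 4.42 with vehicle. The 2 retinoid-related orphans were dim and not called. RORA was at 4.08 to 4.42 with estradiol and 4.12 to 4.37 with vehicle. RORB had 3.30, 3.31, 3.55 and 3.503 with estradiol, against 3.66, 3.57, 3.57 and 3.57 with vehicle. Its groups did not overlap, by a narrow margin, and the difference of −0.18 ± 0.07 (SE) missed the threshold (limma adjusted p = 0.102).

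Among the 6 measured NR2 orphans and HNF4 receptors, NR2F6 fell and the other 5 were not called. NR2F6, also named EAR2 and a relative of the COUP-TF repressors, had 8.36, 8.48, 8.41 and 8.50 with estradiol, against 8.78, 8.67, 8.82 and 8.78 with vehicle. The groups did not overlap, and NR2F6 fell by 0.33 (log2 difference −0.33 ± 0.05 SE, limma adjusted p = 0.00216), or 1.25-fold. Its dimmer probe sets gave −0.22 and −0.08 without being called, and the mean of all 3 gave −0.21 (adjusted p = 0.0743). NR2F1, also named COUP-TFI, had 3.40, 3.29, 3.502 and 3.49 with estradiol, against 3.95, 3.51, 3.75 and 3.52 with vehicle. It was dim, its groups nearly touched, and it was not called (adjusted p = 0.123).

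NR2C1 and NR2C2 encode the testicular receptors TR2 and TR4, which bind embryonic and fetal globin promoters as part of a repressor complex. NR2C1 had 7.08, 7.19, 7.03 and 7.10 with estradiol, against 7.01, 6.57, 6.90 and 6.88 with vehicle. The groups did not overlap, vehicle replicate 2 was the lowest array, and the difference of 0.26 ± 0.09 (SE) missed the threshold (limma adjusted p = 0.0775). Its other probe sets gave 0.02, 0.23 and 0.01, the first of them nearly as bright (mean 6.90 against 6.97). None of the 4 NR2C1 probe sets was called, and their mean gave 0.13 (adjusted p = 0.214). NR2C2 had 7.91, 8.14, 7.99 and 7.97 with estradiol, against 7.94, 7.49, 7.62 and 7.73 with vehicle. Vehicle replicate 1 overlapped with the estradiol arrays, and the difference of 0.31 ± 0.09 (SE) also missed the threshold (adjusted p = 0.0533). Both genes were called higher under several other settings, among them the fit without vehicle replicate 1 (adjusted p = 0.0373 for NR2C1 and 0.00908 for NR2C2), where 5 members rose. Without vehicle replicate 2 the differences were 0.17 for NR2C1 and 0.24 for NR2C2, and neither was called. The photoreceptor factor NR2E3 and the HNF4A relative HNF4G were not called, at 4.42 ± 0.10 and 2.96 ± 0.05 with estradiol, against 4.53 ± 0.08 and 2.95 ± 0.08 with vehicle (SD, n = 4).

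The NR4A genes encode immediate early orphans induced by many signals. NR4A2, also named NURR1, had 4.20, 4.51, 4.65 and 4.52 with estradiol, against 5.27, 4.92, 4.83 and 4.63 with vehicle. The highest estradiol array overlapped narrowly with the lowest vehicle array, and the mean level was below every array median. The difference of −0.44 ± 0.14 (SE) was not called (limma adjusted p = 0.0621). The other 2 NR4A2 probe sets did separate the groups and were called over every probe set. The first of them gave 4.02, 4.26, 4.33 and 4.16 with estradiol, against 4.64, 4.39, 4.60 and 4.79 with vehicle, a difference of −0.41 ± 0.09 (SE, adjusted p = 0.0187). That call was lost in 3 of 14 other fits, among them those that left out estradiol replicate 4 or vehicle replicate 4, with an adjusted p of at most 0.0624. The second gave 3.55, 3.67, 3.58 and 3.70 with estradiol, against 3.98, 3.90, 4.00 and 3.88 with vehicle, a difference of −0.31 ± 0.06 (adjusted p = 0.0049). With the mean of the 3 probe sets NR4A2 was called lower (−0.39, adjusted p = 0.00422), as was its brightest probe set without vehicle replicate 4 (−0.53, adjusted p = 0.0327). As a gene, NR4A2 was called in 3 of 17 other fits. NR4A1, also named NUR77, averaged 6.42 ± 0.15 with estradiol and 6.50 ± 0.03 with vehicle (SD, n = 4), and 1 of its 3 probe sets was called lower, at −0.24. That call was lost in 8 of 14 other fits, 6 of which each left out a single array (estradiol 1, 2, 3 and vehicle 1, 3, 4). NR4A3 averaged 5.38 ± 0.06 with estradiol and 5.32 ± 0.07 with vehicle, with an interval from −0.06 to 0.18.

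NR6A1 showed the largest rise among the members' brightest probe sets. It encodes the germ cell nuclear factor, a repressor that silences pluripotency genes during differentiation in mouse. It had 8.41, 8.43, 8.37 and 8.36 with estradiol, against 8.06, 7.92, 7.95 and 8.09 with vehicle. All estradiol arrays lay above all vehicle arrays, and the difference of the means was 0.39 ± 0.05 (SE, limma adjusted p = 0.000714) or 1.31-fold. Of its 7 probe sets 3 were called higher, at 0.30 to 0.46, and the other 4 gave −0.02 to 0.26. The mean of all 7 gave 0.23 (adjusted p = 0.00568). The steroidogenic factors NR5A1 and NR5A2 were dim and not called, at 4.32 ± 0.10 and 3.68 ± 0.19 with estradiol, against 4.38 ± 0.08 and 3.56 ± 0.18 with vehicle (SD, n = 4). NR0B2, also named SHP, lacks the DNA-binding domain and represses other receptors. It averaged 6.06 ± 0.16 with estradiol and 6.16 ± 0.12 with vehicle, estradiol replicate 1 being low at 5.82.

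**Figure D4:**
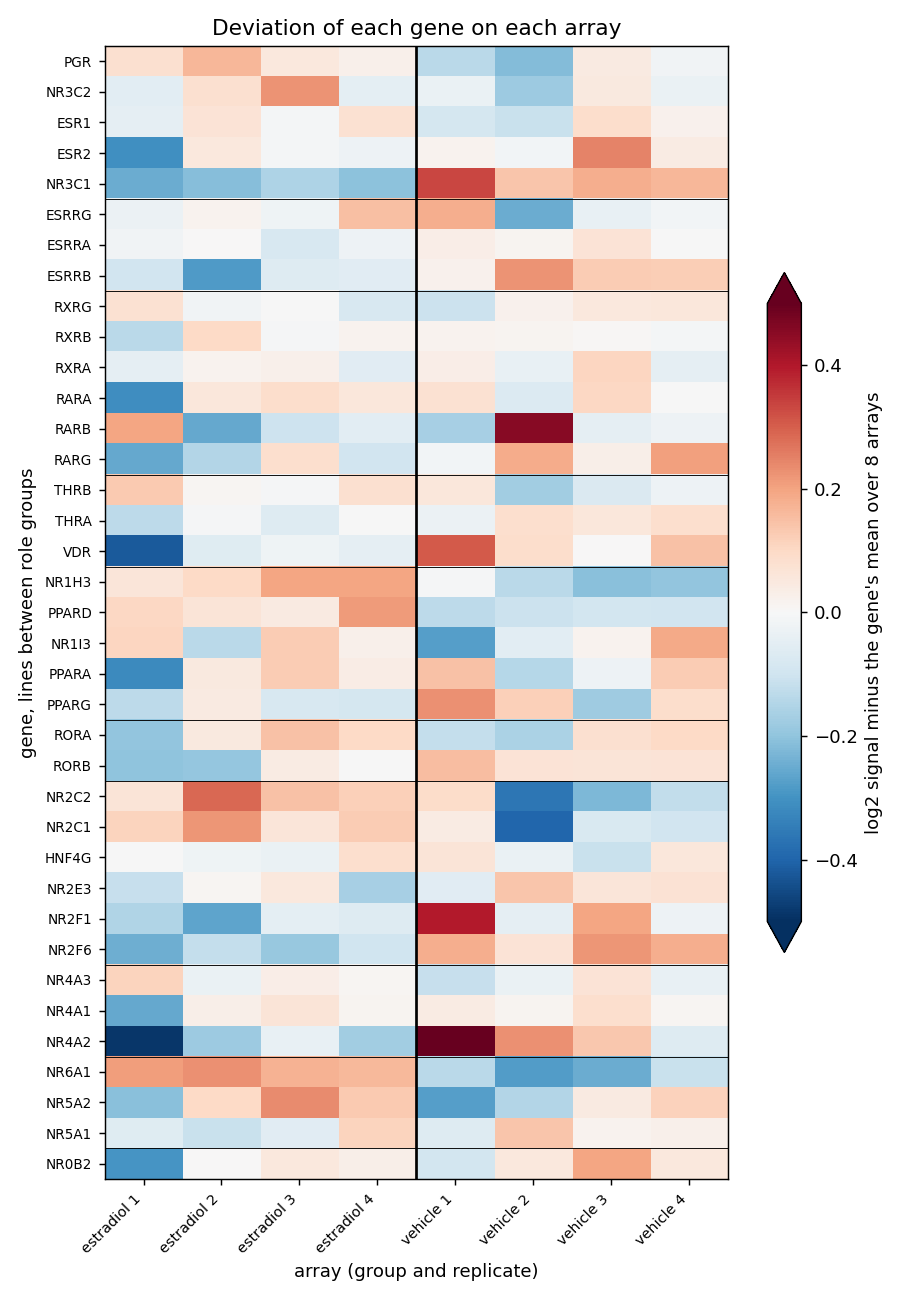
Each cell is the log2 signal of 1 receptor gene on 1 array minus that gene's mean over the 8 arrays, red above and blue below, with the estradiol arrays left of the black line and the vehicle arrays right of it. NR3C1 and NR2F6 are blue and NR6A1 and NR1H3 red on all 4 estradiol arrays, and estradiol replicate 1 is the lowest array for 14 of the 37 genes.

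Known target genes of the receptors, their chaperones and the enzymes that handle their ligands were read as 10 lists holding 95 genes, of which 86 were measured. Among these 14 rose and 11 fell, 29.1%, beside 17.9% of all genes. The lists were chosen with earlier results of these data known. The difference between these shares is therefore no result about the receptors' targets. The largest changes were rises of ACSL1, PLIN2 and ZBTB16, which can be targets of other factors as well. Median differences were close to 0 in every list, from −0.11 for oestrogen receptor targets to 0.08 for vitamin D receptor targets.

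Oestrogen receptor targets showed 3 falls and no rise among 9 measured genes. The corepressor gene NRIP1 averaged 9.04 ± 0.05 with estradiol and 9.47 ± 0.12 with vehicle (SD, n = 4), a difference of −0.43 ± 0.06 (SE, limma adjusted p = 0.00138). The ubiquitin ligase gene SIAH2 and the growth factor binding protein gene IGFBP4 fell too, by log2 differences of −0.33 ± 0.05 and −0.25 ± 0.05 (SE). The other 6, GREB1 and TFF1 among them, were not called. GREB1 averaged 4.22 with estradiol and 4.34 with vehicle, and TFF1 4.81 and 4.79, below every array median.

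Glucocorticoid receptor targets went both ways, with 3 rises and 3 falls among 11 measured genes. The 5 uncalled genes included TSC22D3, TAT and PCK1. ZBTB16, the zinc finger factor PLZF, averaged 8.20 ± 0.12 with estradiol and 5.38 ± 0.21 with vehicle (SD, n = 4), 7.04-fold higher. ERRFI1, a brake on EGF receptor signalling, rose 1.69-fold. SGK1, a kinase that acts on ion transport, averaged 8.02 ± 0.15 with estradiol and 8.75 ± 0.07 with vehicle, 1.65-fold lower. The phosphatase gene DUSP1 fell 1.62-fold. The remaining calls, named after their values were seen, were the co-chaperone gene FKBP5 (0.32 ± 0.04 SE) and KLF9 (−0.27 ± 0.06).

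PPAR targets held 2 rises and 1 fall among 9 measured genes. ACSL1, which activates long-chain fatty acids, averaged 10.72 ± 0.03 with estradiol and 7.83 ± 0.19 with vehicle (SD, n = 4), 7.40-fold higher. PLIN2, a coat protein of lipid droplets, averaged 11.33 ± 0.05 with estradiol and 8.76 ± 0.14 with vehicle, 5.91-fold higher. CPT1A, which passes fatty acids into mitochondria, fell, with a log2 difference of −0.37 ± 0.08 (SE, limma adjusted p = 0.00913). The remaining 6, with the common PPAR targets PDK4 and ANGPTL4, were not called. PDK4 averaged 3.39 with estradiol and 3.27 with vehicle, below the lower quartile of every array, and ANGPTL4 averaged 5.51 and 5.38. Among 9 LXR targets, the cholesterol exporter ABCA1 rose, averaging 5.30 ± 0.14 with estradiol and 4.30 ± 0.19 with vehicle. Its vehicle level lay below every array median, and the mean of its 4 probe sets gave a difference of 0.52. The lipogenic factor SREBF1 (−0.42 ± 0.06) and APOE (−0.23 ± 0.04) fell. The other 6 LXR targets, ABCG1 and MYLIP among them, were not called.

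Among 7 vitamin D receptor targets the calcium buffer CALB1 rose 2.26-fold and the anticoagulant receptor THBD 1.99-fold, both with vehicle levels below the array medians. CYP24A1, the enzyme that clears vitamin D, was not called. It averaged 2.84 with estradiol and 2.79 with vehicle, below the lower quartile of every array. Of 8 retinoic acid receptor targets the retinal reductase DHRS3 rose (0.23 ± 0.06 SE), but leaving out any of estradiol replicates 1, 2 and 3 or vehicle replicates 3 and 4 ended that call (limma adjusted p between 0.0519 and 0.0863). Centring on array medians (adjusted p = 0.0519) and quantile normalization (0.0597) ended the DHRS3 call as well. The other 7 retinoic acid receptor targets, CYP26A1 among them, were not called. None of the 7 targets of FXR, PXR and CAR was called, ABCB1 coming closest (−0.14 ± 0.05, adjusted p = 0.0953). None of the 4 thyroid hormone targets was called, DIO1 coming closest (0.12 ± 0.08, adjusted p = 0.430). Both of these genes lay below the lower quartile of every array. ABCB1 averaged 3.40 with estradiol and 3.55 with vehicle, and DIO1 3.14 and 3.02.

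The HSP90 genes that hold steroid receptors were among the uncalled chaperones. Of 7 measured chaperones the immunophilin FKBP4, which helps steroid receptors bind ligand, fell (−0.34 ± 0.04 SE), and DNAJB1 rose (0.18 ± 0.04). Among 15 measured genes of ligand synthesis and handling 4 rose and 1 fell. HSD17B4, an enzyme of peroxisomal fatty acid and steroid metabolism, averaged 9.86 ± 0.01 with estradiol and 9.18 ± 0.07 with vehicle (SD, n = 4). The retinol dehydrogenases RDH11 and RDH10 rose by 0.45 ± 0.07 and 0.36 ± 0.06 (SE). The rise of the retinal dehydrogenase ALDH1A2 (0.22 ± 0.06), named after its values were seen, was the smallest of the 4. It was not called when estradiol replicate 2 or 3 or vehicle replicate 2, 3 or 4 was removed (limma adjusted p between 0.0619 and 0.0853). HSD17B1, which makes estradiol from oestrone, fell by 0.33 (log2 difference −0.33 ± 0.06). When the probe sets of each gene were averaged, the differences of HSD17B4, RDH11, RDH10 and HSD17B1 were 0.37, 0.29, 0.20 and −0.16, the last no longer called (adjusted p = 0.0541), and those of PLIN2, ABCA1, THBD, DUSP1, SREBF1, CPT1A and KLF9 were 1.27, 0.52, 0.52, −0.41, −0.27, −0.17 and −0.16.

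**Figure D5:**
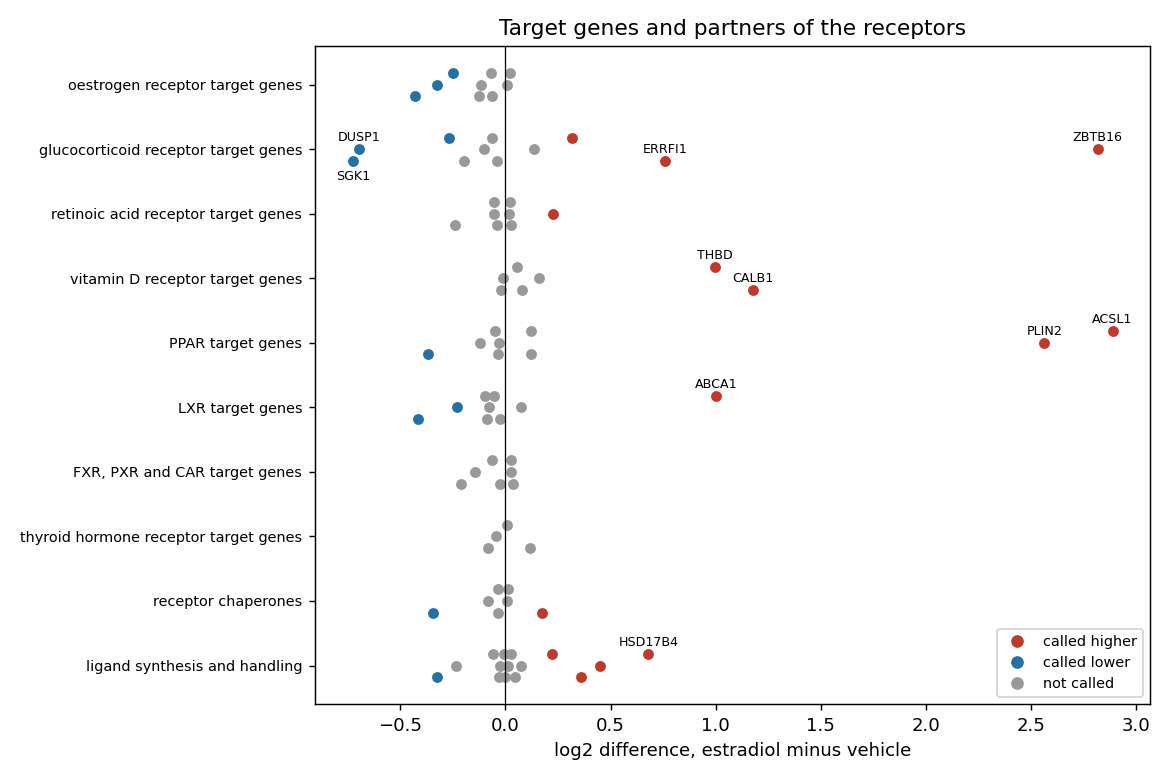
Each dot is the log2 difference, estradiol minus vehicle, of 1 gene in 1 of the 10 lists, red or blue where limma called it higher or lower, with names for differences beyond 0.6. ACSL1, ZBTB16 and PLIN2 lie between 2.5 and 3, and most dots of every list lie near 0.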

How the data were processed

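The authors deposited log2 expression values of 54675 probe sets, and the submitters' processing notes name RMA as the method. Per the labels' protocols, total RNA was amplified with NuGen kits and labelled with biotin. RMA corrects background, brings the arrays to a common distribution and summarizes probes, which hides a change shared by most genes and understates changes of dim genes. The sources used here give no software version or chip definition. In the platform annotation 41097 probe sets had 1 gene symbol, 1801 several and 11777 none, and only those with 1 were named. Symbols of 41043 were checked against RefSeq identifiers and 0 changed.

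Groups came from the sample titles. Each of 19775 genes was tested with limma 3.58.1 in R 4.3.3 (lmFit and eBayes, two-sided, no block, no filter), and p-values were adjusted by Benjamini-Hochberg over all genes. A call means an adjusted p below 0.05, and SEs and 95% intervals are moderated. The test was run on simulated data without differences between whole arrays. That check required recovery only of added changes far larger than those of the members. Every member is accounted for, and those called, with groups that do not overlap, or ESR1, were to be given array by array. ESR2, RARA, NR2C2 and NR4A2 were added after their values were seen. From each target list up to 4 called genes with the largest change were named, or the one with the smallest p. Members and lists were chosen with earlier results of these data known. Same-numbered arrays did not deviate together, with correlations over genes of −0.05, −0.21, 0.09 and 0.11. Precision is limited by having 4 arrays a group. Figures were drawn with matplotlib 3.10.9.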

Additional observations from a re-analysis of the deposited data

Results flagged for a closer look

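In groups of 4 arrays, a value was picked out where its gap to the nearest other array took more than 0.829 of the group's range. Of the 128 groups examined 12 were picked out, and chance alone picks about 1 in 20. Estradiol replicate 1 was low for RARA at 5.90 (the others 6.27 to 6.30), VDR at 5.52 (5.88 to 5.92), NR4A1 at 6.20 (6.47 to 6.53) and NR0B2 at 5.82 (6.11 to 6.16). It was high for ZBTB16 at 8.38 (8.13 to 8.17) and ACSL1 at 10.76 (10.70 to 10.71). Estradiol replicate 2 was low for ESRRB at 4.75 (4.94 to 4.98), and estradiol replicate 4 was high for HSD17B4 at 9.88 (9.85 for each of the others). Vehicle replicate 1 was high for RORB at 3.66 (3.57 for each of the others) and KLF9 at 6.67 (6.45 to 6.48). Vehicle replicate 2 was low for SGK1 at 8.64 (8.78 to 8.80) and HSD17B4 at 9.07 (9.20 to 9.23). Without estradiol replicate 1 the differences were 0.04 for RARA, −0.18 for VDR, −0.00 for NR4A1 and −0.02 for NR0B2, and none was called.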

How the results depend on the processing

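The members called higher numbered 5 in place of 3 with quantile normalization, cyclic loess, a mean log2 of at least 5 or of at least 6, the trend and robust fit and array weights, NR2C1 and NR2C2 being added each time, and 1 at an adjusted p below 0.01. At that threshold the count of all genes called was 2179. With 1 array left out in turn, members called ran from 3 to 5 higher and from 2 to 4 lower, target genes from 12 to 14 higher and from 11 to 12 lower, and all genes called from 2732 to 3551. With the replicate block, members called were 2 higher and 2 lower, target genes 12 and 12, and all genes called 2598, with NR1H3 (adjusted p = 0.0604) and ESRRB (0.0987) lost, and DNAJB1 (0.0552) and ALDH1A2 (0.0905) among the target genes. Same-numbered arrays share only a number. The mean of all probe sets ended the calls of NR2F6, ESRRB and HSD17B1, median centring those of ESRRB and DHRS3, quantile normalization that of DHRS3 and the trend and robust fit that of ESRRB. NR3C1, NR6A1 and PPARD kept their calls at 0.05 in all the other fits run. Of 1174 values of genes under other settings 0 changed the direction of a call, 28 lost and 21 gained a call, and 24 uncalled differences near 0 turned their sign. The causes were not tested. Median centring moved the median of all genes by under 0.1 on the log2 scale. The fit without estradiol replicate 1 and vehicle replicate 2 together, and the fits of single probe sets under other settings, were chosen after seeing the data.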
